A study of Mus musculus with 84 samples.

Results

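The 28 genes described here make cholesterol, sense it and move it, and their mRNA was measured in the liver and the inguinal adipose tissue (IAT) of diabetic db/db mice treated by mouth for 18 days with rosiglitazone (RSG) or with a compound that the labels name only S. The members were taken by the gene name printed in the array files, and 28 of 28 names were found, on 55 of the 41174 probes of a whole mouse genome Agilent 2-colour array. All 28 passed the filter on weak signals in both tissues, in which 17933 genes were tested in liver and 21196 in IAT.

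Every mouse, treated or not, carried the strain label BKS Cg-m+/+ Leprdb/J, so that all of them lacked a working leptin receptor. The study's methods describe male mice, 8 weeks old when obtained. In each tissue there were 6 groups of 6 mice, which had received RSG, an agonist of the nuclear receptor PPARγ, or S, each at 28, 84 or 280 µmol/kg. RNA of each mouse was hybridised on 2 arrays, with exchanged dyes, against 1 pool of RNA from 6 db/db mice that had received the vehicle. The pool counts as 1 control sample. Values below are log2 ratios of treated mouse over pool, and a test against the pool leaves out the spread between untreated mice. A gene was called when its adjusted p from limma, corrected by Benjamini-Hochberg over all probes of the tissue, was under 0.05. For genes with several probes the brightest one was used.

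Cells build cholesterol from acetyl-CoA through mevalonate and squalene. When sterols run low, SCAP escorts the transcription factor SREBP2, encoded by Srebf2, out of the endoplasmic reticulum, and the released factor switches on most genes of the pathway. INSIG1 and INSIG2 hold SCAP back when sterols are plentiful. NPC1 and NPC2 release cholesterol from lysosomes, STARD4 carries it between membranes, ABCA1 loads it onto apolipoproteins, and ABCG5 and ABCG8 together pump sterols out of the cell, in liver into the bile. The liver supplies much of the body's cholesterol, whereas fat cells mainly store it.

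The windows of 250 bases before the start of 6 members are shown because these genes carry the comparisons that follow: Hmgcs1, Idi1, Cyp51 and Sc4mol for the difference between the compounds in liver, and Insig1 and Abcg8 for the sensing and export genes. They are RefSeq sequences of GRCm38.p6, written 5′ to 3′ on the strand of the gene, and capitals mark matches on either strand to the letters TCACNCCAC, a form of the sterol regulatory element, or CCAAT, the box bound by NF-Y.
Hmgcs1, chr13:119690101-119690350, plus strand: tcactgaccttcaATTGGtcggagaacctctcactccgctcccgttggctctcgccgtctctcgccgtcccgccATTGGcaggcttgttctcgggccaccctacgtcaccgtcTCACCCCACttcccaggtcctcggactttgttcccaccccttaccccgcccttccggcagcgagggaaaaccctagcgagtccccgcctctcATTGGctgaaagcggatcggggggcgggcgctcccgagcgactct
Idi1, chr13:8885356-8885605, plus strand: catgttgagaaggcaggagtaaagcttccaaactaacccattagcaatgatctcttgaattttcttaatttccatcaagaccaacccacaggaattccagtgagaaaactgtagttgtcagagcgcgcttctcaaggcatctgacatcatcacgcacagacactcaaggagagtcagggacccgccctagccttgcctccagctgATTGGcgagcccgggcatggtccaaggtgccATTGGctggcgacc
Cyp51, chr5:4104698-4104947, minus strand: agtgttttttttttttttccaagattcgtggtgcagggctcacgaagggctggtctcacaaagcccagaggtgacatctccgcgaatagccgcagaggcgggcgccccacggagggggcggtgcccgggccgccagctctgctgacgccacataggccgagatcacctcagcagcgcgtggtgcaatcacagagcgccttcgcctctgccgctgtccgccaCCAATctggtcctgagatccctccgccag
Sc4mol, chr8:64733579-64733828, minus strand: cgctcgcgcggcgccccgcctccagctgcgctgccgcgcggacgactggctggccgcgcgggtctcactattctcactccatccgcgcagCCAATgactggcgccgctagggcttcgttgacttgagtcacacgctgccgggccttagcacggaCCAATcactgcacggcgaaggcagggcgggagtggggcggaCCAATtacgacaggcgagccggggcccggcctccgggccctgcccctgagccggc
Insig1, chr5:28071162-28071411, plus strand: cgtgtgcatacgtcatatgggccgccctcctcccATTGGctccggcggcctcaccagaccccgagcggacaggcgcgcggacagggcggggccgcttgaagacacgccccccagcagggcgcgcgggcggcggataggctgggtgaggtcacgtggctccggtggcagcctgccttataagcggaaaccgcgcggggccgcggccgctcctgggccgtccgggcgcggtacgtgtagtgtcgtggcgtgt
Abcg8, chr17:84682871-84683120, plus strand, the first of its 2 listed starts: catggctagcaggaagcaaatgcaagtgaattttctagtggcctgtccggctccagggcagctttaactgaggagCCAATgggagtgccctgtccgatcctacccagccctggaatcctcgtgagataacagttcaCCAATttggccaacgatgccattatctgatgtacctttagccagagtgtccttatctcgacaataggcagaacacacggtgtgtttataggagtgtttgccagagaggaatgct

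Hmgcs1 and Sc4mol each held 3 CCAAT boxes, Idi1 and Abcg8 held 2, and Cyp51 and Insig1 held 1. Over the 23 members with a listed start, 19 (82.6%) had CCAAT in at least 1 window of 250 bases, against 37.5% of 27025 genes with a window of the same length and 39.3% of the 8947 of them tested in liver. TCACNCCAC stood in 1 of 23 members (4.35%), Hmgcs1, against 1.22% of all genes. Hmgcs1 was thus the 1 member with both motifs, which 0.466% of all genes had, and no match of one motif overlapped a match of the other. A match is a run of letters, not a site shown to be bound. No window was listed for Fdps, Fdft1, Sqle, Stard4 and Npc1.

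Before the results, some facts on the arrays are needed. The share of probes well above background was 43.4 to 65.8% per array in liver and 61.8 to 78.2% in IAT. The pools matched their labels, with 10 of 10 hepatocyte markers brighter in the liver pool and 10 of 10 adipocyte markers brighter in the IAT pool. The scanner files divide each tissue into 6 scan days, none of which held both tissues, and groups were unevenly spread over them. In liver 1 mouse stood apart, replicate 2 of RSG 280 µmol/kg, whose ratios over all genes correlated at 0.47 with the mean of the other 5 mice. In IAT that correlation was lowest for replicate 5 of RSG 28 µmol/kg (0.28) and replicate 2 of RSG 280 µmol/kg (0.58). These 2 IAT mice had the highest epithelial markers of their groups. The IAT mice differed widely in these markers, as described with those results.

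In liver S raised 10, 13 and 17 of the 18 synthesis enzymes with rising dose, and RSG raised 5, 7 and 11 and lowered 6, 5 and 1. Of the 28 members, RSG raised 8, 11 and 17 at 28, 84 and 280 µmol/kg and lowered 8, 7 and 3. Over all genes tested, 25.1, 24.6 and 22.4% were higher at these doses and 34.7, 32.9 and 29.7% were lower. S raised 14, 19 and 23 members and lowered 3, 3 and 2, against 23.5, 24.4 and 28.4% of all genes higher and 28.9, 31 and 38.6% lower. At RSG 28 µmol/kg as many members were lower as higher, while at S 280 µmol/kg 23 of 28 were higher. The 6 mice of S 28 µmol/kg were all scanned on 1 day. With scan day as a block, the calls with S went from 17, 22 and 25 members to 3, 13 and 21. Those with RSG went from 16, 18 and 20 to 13, 13 and 21. In that fit 19.7, 38.7 and 54.8% of all genes were called with S and 49, 40.3 and 42.4% with RSG. The median ratio of the 28 without the block was -0.01, 0.12 and 0.36 with RSG and 0.28, 0.31 and 0.64 with S. With the block it was 0.13, 0.22 and 0.48 with RSG and 0.08, 0.22 and 0.55 with S, so the compounds lay closer together. The median of all genes without the block lay between -0.06 and -0.03. The p-values rest on 1 pool, so that its own deviation from other untreated mice is part of every ratio.

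**Figure D1:**
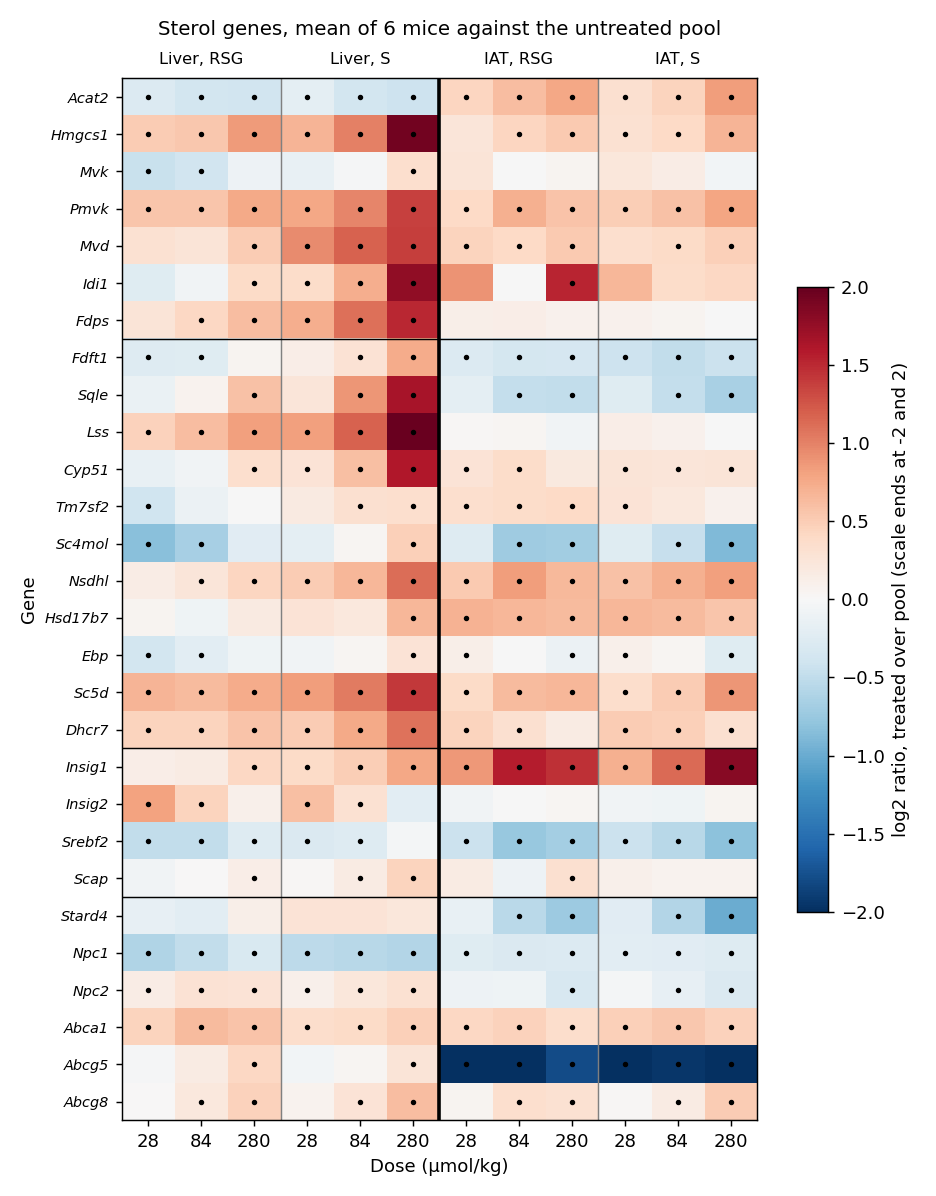
Mean log2 ratio of treated mouse over pool for the 28 genes (rows, by role) in the 12 groups of 6 mice (columns, by tissue, compound and dose in µmol/kg). The colour scale ends at -2 and 2 and a dot marks an adjusted p under 0.05. The liver columns of S deepen from 28 to 280 µmol/kg, where 17 of 18 enzymes were higher, and Abcg5 was the gene farthest below the pool in IAT.

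The first enzymes of the pathway lead from acetyl-CoA to farnesyl diphosphate. Hmgcs1, which makes HMG-CoA, ranged in liver from 0.24 to 1.15 (median 0.31) at RSG 28 µmol/kg, from 0.04 to 0.99 (median 0.49) at 84 µmol/kg and from 0.26 to 1.23 (median 0.89) at 280 µmol/kg. With S it ranged from 0.24 to 0.96 (median 0.77), from 0.60 to 1.20 (median 1.09) and from 1.51 to 2.73 (median 1.81). All 36 mice lay above the pool, and at the highest dose no S mouse overlapped an RSG mouse. The mean at 280 µmol/kg was 0.86 ± 0.35 (SD, n = 6) with RSG, a 1.81-fold increase (adjusted p = 5.6e-06, limma), and 1.93 ± 0.44 with S, a 3.80-fold increase (adjusted p = 1e-13).

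Idi1, the isomerase that makes the reactive isoprenoid, behaved differently at low RSG doses. It ranged from -1.01 to 0.46 (median -0.26) at RSG 28 µmol/kg, where the mean was -0.24 and did not pass the test (adjusted p = 0.16), and from -0.13 to 0.60 (median 0.49) at 280 µmol/kg, where it was 0.39 ± 0.28 (n = 6, adjusted p = 0.027, limma). With S at 280 µmol/kg it ranged from 1.19 to 2.40 (median 1.70), 3.41-fold above the pool (adjusted p = 2.2e-12). The lowest S mouse thus stood above the highest RSG mouse. Fdps, which joins isoprenoids into farnesyl diphosphate, had means of 0.26, 0.41 and 0.62 with RSG and of 0.73 and 1.10 at the lower doses of S, and was 2.83-fold above the pool at S 280 µmol/kg. Of its 6 groups, RSG 28 µmol/kg missed the test (adjusted p = 0.084, limma). The mevalonate kinases and decarboxylase differed in reach. Pmvk rose in all 6 groups, with means of 0.55 to 0.75 with RSG and 0.78 to 1.36 with S. Mvd reached 0.50 with RSG and 1.38 with S at 280 µmol/kg. Replicate 2 of RSG 280 µmol/kg had Mvd at -0.65, and without it the RSG mean was 0.73. Mvk fell at the lower RSG doses (-0.45 and -0.38) and rose at S 280 µmol/kg (0.34).

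Acat2, which condenses acetyl-CoA at the entry of the pathway, was the enzyme that fell in all 6 liver groups. Its means were -0.27, -0.36 and -0.39 with RSG and -0.19, -0.36 and -0.42 with S, and 36 of 36 mice lay below the pool, between -0.69 and -0.05. The difference between the compounds at 280 µmol/kg was 0.03, with a 95% interval of -0.10 to 0.16.

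Of the 11 enzymes from squalene to cholesterol, RSG raised 3, 4 and 6 with rising dose and lowered 4, 3 and 0, while S raised 5, 8 and 11 and lowered none. For the 7 earlier enzymes the counts were 2, 3 and 5 raised and 2, 2 and 1 lowered with RSG, and 5, 5 and 6 raised and 1 lowered at each dose with S. Sqle, the epoxidase that commits squalene to sterols, ranged from -1.18 to 0.54 (median -0.12) at RSG 28 µmol/kg, from -0.11 to 1.04 (median 0.59) at RSG 280 µmol/kg and from 1.21 to 2.03 (median 1.73) at S 280 µmol/kg. At 280 µmol/kg its mean was 0.58 ± 0.40 with RSG (adjusted p = 0.0024, limma, n = 6) and 1.65 ± 0.29 with S, a 3.13-fold increase (adjusted p = 5e-11). Every S mouse at that dose lay above every RSG mouse.

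Lss closes the ring of lanosterol and was raised in all 6 liver groups by its brightest probe. At 280 µmol/kg it ranged from -0.0025 to 1.25 (median 0.89) with RSG and from 1.37 to 2.40 (median 2.00) with S, and the mean with S was 1.97 ± 0.34, 3.93-fold above the pool (adjusted p = 5.4e-14, limma, n = 6). The RSG mouse at the bottom of that range was replicate 2, and the other 5 lay between 0.80 and 1.25. A dimmer Lss probe, designed on another transcript, gave -0.33, -0.19 and 0.22 with RSG and was called lower at 28 µmol/kg, so the rise at low RSG doses depended on the probe. Cyp51, which demethylates lanosterol, ranged from -0.75 to 0.39 (median -0.20) at RSG 28 µmol/kg, from 0.06 to 0.53 (median 0.37) at RSG 280 µmol/kg and from 1.20 to 2.02 (median 1.59) at S 280 µmol/kg. Its mean at the highest dose was 0.33 ± 0.18 with RSG (adjusted p = 0.018) and 1.61 ± 0.29 with S, a 3.04-fold increase (adjusted p = 9.1e-14).

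Sc4mol, the sterol C4 methyl oxidase that follows, was the enzyme farthest below the pool in liver. At RSG 28 µmol/kg it ranged from -1.44 to -0.36 (median -0.89) and at 84 µmol/kg from -1.34 to -0.27 (median -0.48), so that no mouse of these groups reached the pool. The mean was -0.84 ± 0.40, a fall to 0.559 of the pool (adjusted p = 2.5e-07, limma, n = 6), then -0.66 ± 0.45, and at 280 µmol/kg it was -0.22 and did not pass (adjusted p = 0.11). With S it was -0.20 and 0.04 at the lower doses, neither called, and 0.48 ± 0.31 at 280 µmol/kg (0.08 to 0.99, median 0.50, adjusted p = 0.00059). Sc4mol was 1 of 5 members called in both directions in liver, with Ebp, Fdft1, Tm7sf2 and Mvk, each lower with RSG at a low dose and higher with S at 280 µmol/kg.

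The remaining late enzymes moved in smaller steps. Sc5d and Dhcr7, which act last, rose in all 6 groups, with means of 0.63 to 0.75 and 0.44 to 0.57 with RSG and of 0.84 to 1.41 and 0.51 to 1.09 with S. Nsdhl, a C4 decarboxylase, went from 0.14 at RSG 28 µmol/kg to 0.44 at 280 µmol/kg and from 0.51 to 1.12 with S. Hsd17b7, a C4 ketoreductase, was 0.18 at RSG 280 µmol/kg and 0.66 at S 280 µmol/kg.

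**Figure D2:**
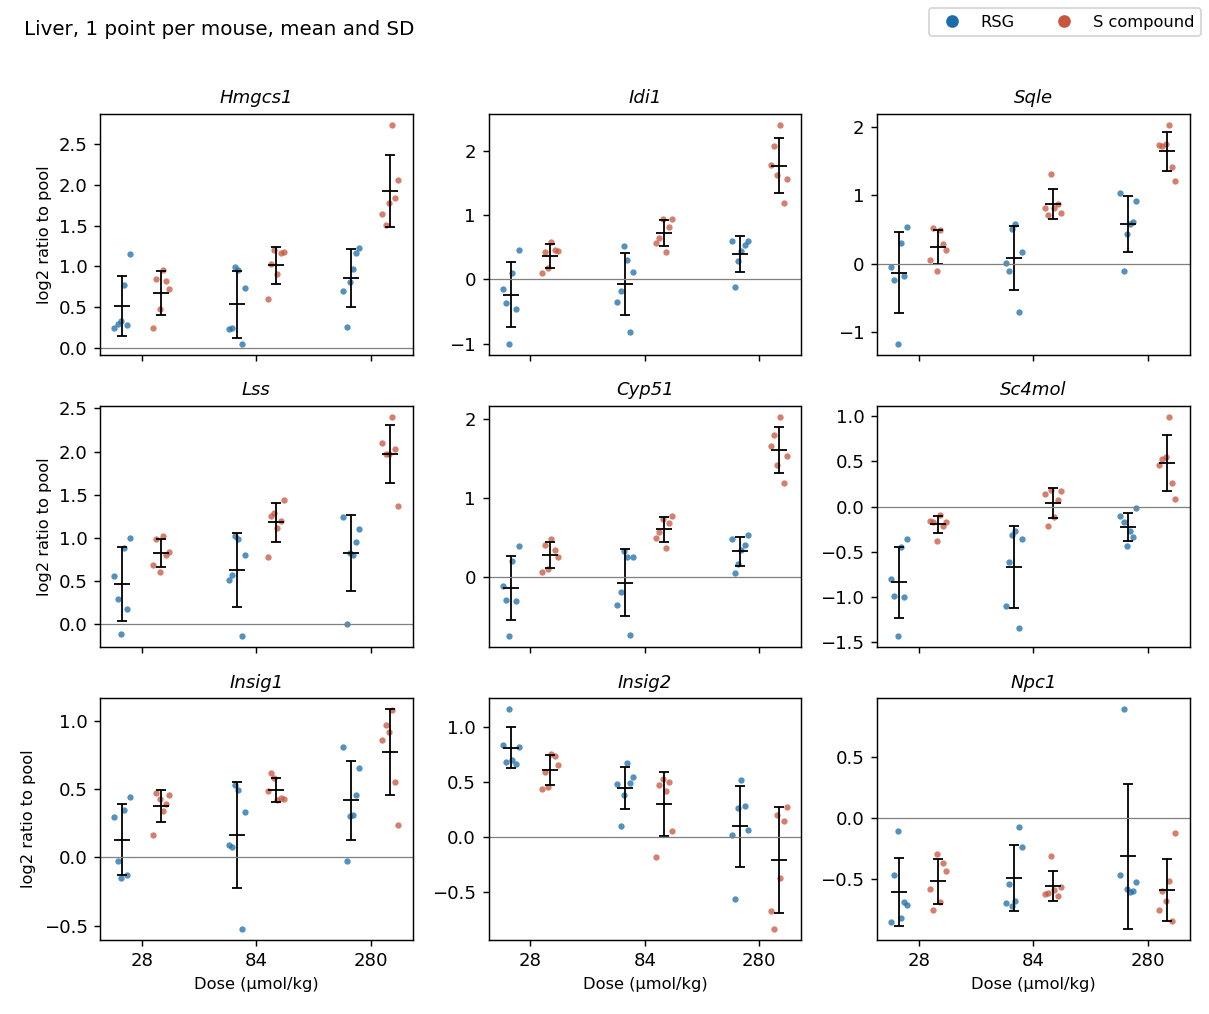
Log2 ratio over the pool in liver of 9 members, 1 point per mouse, with the mean and SD of the 6 mice of each group, by compound and dose in µmol/kg. Hmgcs1, Idi1, Sqle, Lss and Cyp51 at S 280 µmol/kg lie above all RSG mice of that dose, the Insig2 mean at 280 µmol/kg lies below that at 28 µmol/kg for both compounds (a called difference for S, not for RSG), and the high Npc1 point at RSG 280 µmol/kg is replicate 2 at 0.895.

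Among the sensors, the change from 28 to 280 µmol/kg was called for S, upwards for Insig1 (0.39, adjusted p = 0.047, limma) and downwards for Insig2 (-0.82, adjusted p = 0.00036). With RSG it was 0.29 for Insig1 (adjusted p = 0.38) and -0.71 for Insig2 (adjusted p = 0.079), neither called. Insig1 in liver had means of 0.13, 0.17 and 0.42 for RSG and 0.38, 0.49 and 0.77 for S, and passed the test in 4 groups. At S 280 µmol/kg it ranged from 0.24 to 1.08 (median 0.89, adjusted p = 1.2e-07, limma). Against the pool, Insig2 was called at the lowest dose of each compound and not at the highest. At RSG 28 µmol/kg it ranged from 0.66 to 1.16 (median 0.76) and at S 28 µmol/kg from 0.44 to 0.75 (median 0.63), with no mouse at or below the pool. At 280 µmol/kg it ranged from -0.56 to 0.52 with RSG and from -0.83 to 0.28 with S, and the mice of both groups lay on either side of the pool. The mean with RSG was 0.81 ± 0.19 at 28 µmol/kg (adjusted p = 7.4e-07, limma, n = 6) and 0.10 at 280 µmol/kg (adjusted p = 0.52). With S it was 0.61 ± 0.14 (adjusted p = 8.3e-05) and -0.21 (adjusted p = 0.12). The technical replicates at 28 µmol/kg had lower Insig2 means than the mice, 0.47 with RSG and 0.09 with S.

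Srebf2 itself was lower in 5 of the 6 liver groups, with means of -0.49, -0.50 and -0.26 with RSG and -0.29 and -0.26 with S, and it was -0.04 at S 280 µmol/kg (adjusted p = 0.5, limma). A second Srebf2 probe gave -0.06 at RSG 280 µmol/kg and 0.17 at S 280 µmol/kg, the latter called higher. Scap, the escort, was called higher at RSG 280 µmol/kg (0.13) and at S 84 and 280 µmol/kg (0.16 and 0.45), and its means in the other groups were -0.07 to 0.02.

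The transport and export genes moved in different directions. Npc1 fell in all 6 liver groups (-0.61, -0.49 and -0.31 with RSG, -0.52, -0.55 and -0.59 with S), and at RSG 280 µmol/kg it was -0.55 without replicate 2, the 1 mouse above the pool in that group. Npc2 rose slightly in all 6 groups (0.10 to 0.30), although the technical replicates at 28 µmol/kg of both compounds lay below the pool. Abca1 rose in all 6 groups and in 36 of 36 mice, with means of 0.44, 0.63 and 0.57 with RSG and 0.36, 0.39 and 0.48 with S. The half-transporters Abcg5 and Abcg8 rose at the highest dose, to 0.42 and 0.46 with RSG and to 0.26 and 0.61 with S, and Abcg8 was called higher at 84 µmol/kg of RSG (0.21) and S (0.28) too. Stard4 was the 1 member called in no liver group (-0.21 to 0.28), although a second probe was called at S 280 µmol/kg (0.44).

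The compounds were compared in liver at 3 matched doses. At 28 µmol/kg no member differed by limma, against 0.418% of all genes higher with RSG and 0.563% lower, and at an unadjusted p under 0.05 there were 12 lower and 0 higher with RSG, against 9.06 and 5.77% of all genes. At 84 µmol/kg 1 member was higher and 6 lower with RSG, against 0.697 and 1.21% of all genes. The higher one was Abca1, by 0.24 (95% interval 0.13 to 0.36). The lower ones were Mvd (-0.93), Idi1 (-0.79), Sc4mol (-0.70), Fdps (-0.69), Cyp51 (-0.67) and Fdft1 (-0.53). At 280 µmol/kg 0 members were higher and 18 lower with RSG than with S, against 14.9 and 14.2% of all genes, and 16 of the 18 were enzymes of the pathway.

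The members farthest apart at 280 µmol/kg were Idi1 (RSG minus S -1.38, 95% interval -1.80 to -0.96, adjusted p = 6.2e-06, limma), Cyp51 (-1.28, -1.61 to -0.94, adjusted p = 5.8e-07) and Lss (-1.15, -1.55 to -0.75, adjusted p = 4e-05). Hmgcs1 and Sqle both differed by -1.07, followed by Fdps and Mvd (-0.88), Sc4mol (-0.70), Fdft1 (-0.69), Nsdhl (-0.68), Sc5d (-0.66), Pmvk (-0.61), Dhcr7 (-0.52), Hsd17b7 (-0.48), Mvk (-0.44) and Ebp (-0.37). The 2 members of the 18 outside synthesis were Scap (-0.32) and Srebf2 (-0.22). For 8 members, Idi1, Cyp51, Lss, Hmgcs1, Sqle, Sc4mol, Fdft1 and Nsdhl, the 6 RSG mice all lay below the 6 S mice, and 0 members lay above without overlap. Over all genes these shares were 6.44 and 5.3%.

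For the other members no difference at 280 µmol/kg was called, and the intervals show how large one could have been. Insig1 differed by -0.35 (-0.66 to -0.05, adjusted p = 0.079, limma), Insig2 by 0.31 (-0.04 to 0.65) and Npc1 by 0.27 (-0.09 to 0.64). The intervals were narrower for Abca1 (0.08, -0.03 to 0.20) and Npc2 (-0.03, -0.13 to 0.07), and they included 0 for Abcg5 (0.16, -0.10 to 0.41), Abcg8 (-0.15, -0.40 to 0.10) and Stard4 (-0.10, -0.53 to 0.33).

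The scan day moved with these groups. RSG 280 and S 280 µmol/kg lay on 2 days each, of which 1 was shared. With scan day as a block, the differences called at 280 µmol/kg went from 18 members to 1, Cyp51 (-0.92, 95% interval -1.45 to -0.40, adjusted p = 0.019, limma), where 12.4% of all genes were called. All 18 remained below 0, the median difference of the 28 members went from -0.46 to -0.18, and the median half-width of the intervals grew from 0.32 to 0.47. Idi1 was then -0.84 (adjusted p = 0.082), Hmgcs1 -0.78 (adjusted p = 0.086) and Lss -0.68 (adjusted p = 0.14). At 84 µmol/kg the 7 calls went to 0, as did those of all genes (0%).

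On the shared day there were 2 mice of each compound at 280 µmol/kg. Of the 28 members, 19 were lower with RSG on that day and 9 higher, where 47.5 and 52.5% of all genes were. The mice did not overlap for 10 of the lower members and for 3 of the higher ones (Acat2, Stard4 and Abca1), against 26.5 and 29.9% of all genes. Of the 18 members called over all mice, 17 were lower on that day and 10 did not overlap. Cyp51 was 0.40 and 0.53 in the RSG mice against 1.20 and 1.53 in the S mice. Hmgcs1 was 1.17 and 1.23 against 1.84 and 2.05, and Idi1 was 0.54 and 0.59 against 1.19 and 1.56. With 2 mice against 2, no test was run on these values.

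**Figure D3:**
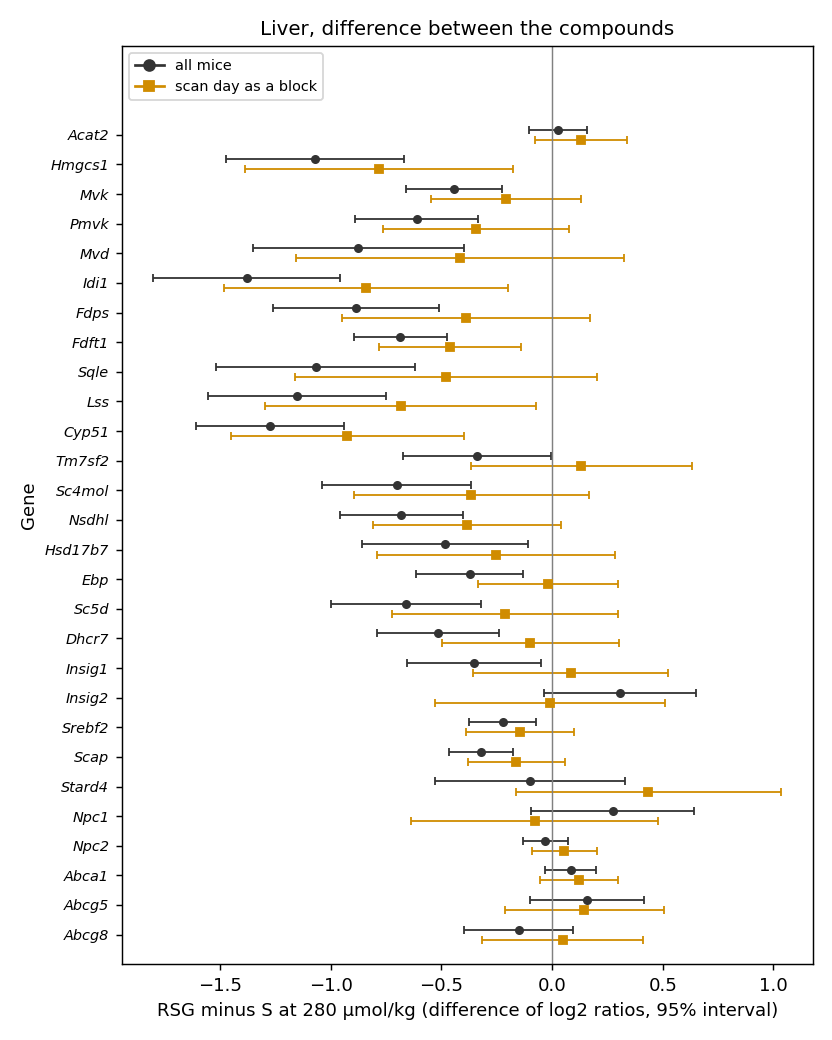
Difference in log2 ratio between RSG and S at 280 µmol/kg in liver for the 28 members, with 95% intervals, over all 12 mice (circles) and with scan day as a block (squares). The circles run from -1.38 for Idi1 to 0.31 for Insig2, and the squares of the 18 called members stay below 0 with wider intervals.

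Fatty acid synthesis genes are a second programme driven by SREBP factors in liver. Of 15 measured, 14, 13 and 12 rose with RSG over the 3 doses and 14, 14 and 11 with S, and their median ratio was 1.02, 1.12 and 0.95 with RSG and 1.27, 1.58 and 1.22 with S. At 280 µmol/kg, 3 of them were lower and 0 higher with RSG than with S. For comparison, the 18 cholesterol enzymes had medians of -0.04, 0.00 and 0.41 with RSG and 0.32, 0.70 and 1.24 with S. Of 25 other sterol and isoprenoid genes, 8 rose and 14 fell at S 280 µmol/kg, with Aacs, the acetoacetyl-CoA synthetase, at 1.21 among those that rose.

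The dose comparison does not involve the pool, which cancels. In liver, 19 members were higher and 2 lower at 280 than at 28 µmol/kg of S, against 13.5 and 16.9% of all genes. Idi1 and Sqle gained 1.41, Cyp51 1.33, Hmgcs1 1.25, Lss 1.15 and Fdps 0.77 on the log2 scale, and at the other end Insig2 fell by 0.82 (95% interval of the change -1.16 to -0.47) and Acat2 by 0.22. For 15 members the mice at 280 µmol/kg all lay above those at 28 µmol/kg and for 1, Insig2, all lay below, against 7.66 and 8.77% of all genes. With RSG, 0 members passed by limma, against 0.0167% of all genes higher and 0% lower, while 26 of 28 were above 0. At an unadjusted p under 0.05, 15 were higher and 1 lower, against 8.53 and 6.49% of all genes. With scan day as a block, the S count went from 21 to 8 members, against 10% of all genes called in that fit. On 1 day that held 2 mice each of RSG 280 and RSG 28 µmol/kg, 25 of 28 members were higher at 280 µmol/kg and 3 lower, where 52.7 and 47.3% of all genes were. The mice did not overlap for 15 of the higher and 2 of the lower members, against 22.1 and 18.3% of all genes.

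Other markers differed between the liver mice too. The median ratio of 9 adipocyte markers was between 0.17 and 2.10 per mouse, that of 8 skeletal muscle markers between -1.74 and 0.64, and that of 10 hepatocyte markers between -0.61 and -0.14. The median mouse had adipocyte markers at 1.53, 1.29 and 0.97 with RSG and 1.22, 1.49 and 0.43 with S over the doses. For hepatocyte markers these values were -0.35, -0.28 and -0.30 with RSG and -0.27, -0.40 and -0.52 with S. Markers of 1 list went both ways. At S 280 µmol/kg 2 hepatocyte markers were higher and 8 lower, and 5 adipocyte markers were higher and 2 lower. Whether these levels share in the member values was not tested, and in bulk tissue fewer cells of a type and less RNA per cell cannot be told apart.

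In IAT some members rose and others fell with both compounds, and no difference between the compounds was called. RSG raised 12, 13 and 13 members and lowered 4, 7 and 9 over the 3 doses, against 23.7, 33.8 and 33.5% of all genes higher and 21.5, 30.7 and 32.7% lower. S raised 12 at each dose and lowered 4, 8 and 9, against 24.5, 28.9 and 38.7% higher and 21.4, 25.2 and 35.6% lower. With scan day as a block, the members called went from 16, 20 and 22 to 6, 20 and 18 with RSG. With S at 28 and 84 µmol/kg they went from 16 and 20 to 10 and 12. In that fit 13.8, 56.6 and 51.6% of all genes were called with RSG and 32.6 and 23.9% with S. Of the 18 enzymes, 9 or 10 rose and 1 to 4 fell in each group, with medians between 0.29 and 0.34.

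Insig1, the sterol-sensitive partner of SCAP, rose in all 6 IAT groups. It ranged from 0.08 to 1.34 (median 0.99) at RSG 28 µmol/kg, from 1.19 to 2.15 (median 1.57) at 84 µmol/kg and from 0.48 to 1.97 (median 1.60) at 280 µmol/kg. With S it ranged from 0.51 to 0.88 (median 0.75), from 0.83 to 1.33 (median 1.16) and from 1.60 to 2.02 (median 1.79). No mouse of the 36 was below the pool, and the S groups at 28 and 280 µmol/kg did not overlap. The mean was 1.47 ± 0.52 at RSG 280 µmol/kg, 2.77-fold (adjusted p = 3.5e-11, limma, n = 6), and 1.81 ± 0.15 at S 280 µmol/kg, 3.52-fold (adjusted p = 1.6e-13).

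Abcg5 was the member farthest below the pool. At RSG 28, 84 and 280 µmol/kg it ranged from -2.35 to -1.60, from -2.27 to -1.78 and from -2.12 to -1.47, and with S from -2.55 to -1.32, from -2.40 to -1.59 and from -2.68 to -1.96. All 36 mice stood at least 1.32 below the pool and the groups overlapped one another at every dose. Mean levels were 0.210 to 0.290 of the pool, and the adjusted p at S 280 µmol/kg was 6e-17 (limma). The difference of 280 minus 28 µmol/kg was called for neither compound, which does not show that the doses are equal. All groups share the 1 pool, so a high Abcg5 level in that pool and a fall with treatment cannot be told apart. Its partner Abcg8 went the other way, with means of 0.05, 0.34 and 0.30 with RSG and 0.02, 0.16 and 0.50 with S, called at the 2 higher doses of each, and its signal was above background on 7 to 12 of the 12 arrays of a group.

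Of the enzymes in IAT, Acat2, Pmvk, Nsdhl, Hsd17b7 and Sc5d rose in all 6 groups. Acat2, which fell in liver, had means of 0.43, 0.62 and 0.78 with RSG and 0.33, 0.44 and 0.83 with S, and 36 of 36 mice were above the pool. Nsdhl lay between 0.52 and 0.83, Hsd17b7 between 0.56 and 0.70, Pmvk between 0.40 and 0.79 and Sc5d between 0.35 and 0.88. Hmgcs1 rose in 5 groups, to 0.52 ± 0.49 at RSG 280 µmol/kg and 0.68 ± 0.18 at S 280 µmol/kg (n = 6 each).

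Other enzymes fell. Sqle had means of -0.20, -0.48 and -0.49 with RSG and -0.24, -0.47 and -0.65 with S and was called at the 2 higher doses of each. Sc4mol was -0.26, -0.71 and -0.70 with RSG and -0.23, -0.47 and -0.88 with S, and Fdft1, the squalene synthase, was between -0.49 and -0.27 and lower in all 6 groups. At 84 µmol/kg RSG, the 6 Sc4mol values lay between -0.89 and -0.63. Srebf2 fell in all 6 groups too (-0.42, -0.75 and -0.68 with RSG, -0.43, -0.56 and -0.82 with S) and Npc1 likewise (-0.28 to -0.21). Stard4 was lower at the 2 higher doses of each compound, with a mean of -0.73 at RSG 280 µmol/kg and values down to -1.84 (median -0.75) at S 280 µmol/kg. Abca1 rose in all 6 groups (0.36 to 0.53).

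Some IAT values depended on the probe. The brightest Lss probe was near 0 in IAT and called in no group, while its other 2 probes gave 0.54 to 1.16 and were called higher in all 6. The other Insig2 probe gave 0.37 to 0.53 against -0.08 to 0.05 for the brightest one, and other Srebf2 probes gave -0.39 to 0.18. A second Fdft1 probe gave -0.25 to 0.08 and a second Hsd17b7 probe 0.03 to 0.16, nearer to the pool than the brightest ones. The direction of Lss, Insig2, Srebf2 and Fdft1 in IAT is therefore not settled by the array.

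No difference between RSG and S was called for any member in IAT at 28, 84 or 280 µmol/kg by limma, against 0.00472, 2.36 and 1.47% of all genes. At an unadjusted p under 0.05 the counts were 0, 1 and 3 members, against 4.45, 15.5 and 20.3% of all genes, and the median half-width of the 95% intervals was 0.31. With dose, RSG raised 2 members (Insig1 by 0.60 and Acat2 by 0.35) and lowered 3 (Stard4, Ebp and Npc2) from 28 to 280 µmol/kg, against 13.5 and 12.8% of all genes. S raised 4 (Insig1 by 1.10, Sc5d by 0.54, Acat2 by 0.51 and Abcg8 by 0.48) and lowered 6, of which Stard4 fell by 0.77 and Sc4mol by 0.64, against 25.1 and 18.5% of all genes. With scan day as a block the RSG count went from 5 members to 0, against 6.94% of all genes called in that fit, and S 280 µmol/kg shared no day with another group, so that day and group cannot be told apart there.

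Epithelial markers differed widely between IAT samples. The median ratio of 11 measured markers ranged over the 36 mice from -4.41 to 0.36 (median -3.81), with 23 mice below -2.5 and 13 above. Idi1 moved with them. Its median was -0.06 (-0.60 to 1.20) in the 23 mice and 2.01 (-0.38 to 3.63) in the 13. Within groups Idi1 had SDs of 1.23 to 1.59 in 5 of the 6. At RSG 280 µmol/kg it was 1.52 ± 1.24 (adjusted p = 0.0092, limma, n = 6). Scap was -0.08 in the 23 and 0.42 in the 13.

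Over the 36 mice, after removing group means, the correlation with the epithelial median was 0.82 for Scap, 0.76 for Idi1 and Srebf2 and 0.66 for Sc4mol, and it was negative for Abca1 (-0.68), Npc2 (-0.57) and Insig1 (-0.51). These are descriptions over mice that share the 1 pool. Abcg5 lay between -2.55 and -1.32 in the 23 mice and between -2.68 and -1.67 in the 13, and Hmgcs1 had medians of 0.43 in both. Without the 13 mice the counts of members raised and lowered were 13 and 6, 13 and 8, and 13 and 8 with RSG and 11 and 6, 12 and 8, and 12 and 11 with S. In that fit 52.6, 66.5 and 60.5% of all genes were called in either direction with RSG and 49.4, 51.5 and 76.1% with S. The pool itself was rich in epithelial signal, with median log2 signals of 13.5 for Krt19 and 13.1 for Cldn7 against 9.4 and 9.1 in the mice. The 13 mice left out were those nearest to the pool, so the fit kept the mice that differed most from it. These counts are therefore no check on epithelial content, whose part in the ratios was not tested. Skeletal muscle markers varied in IAT as well (-4.60 to 0.72), as did lymphocyte markers (-0.87 to 1.41), and their part in the member values was not tested.

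**Figure D4:**
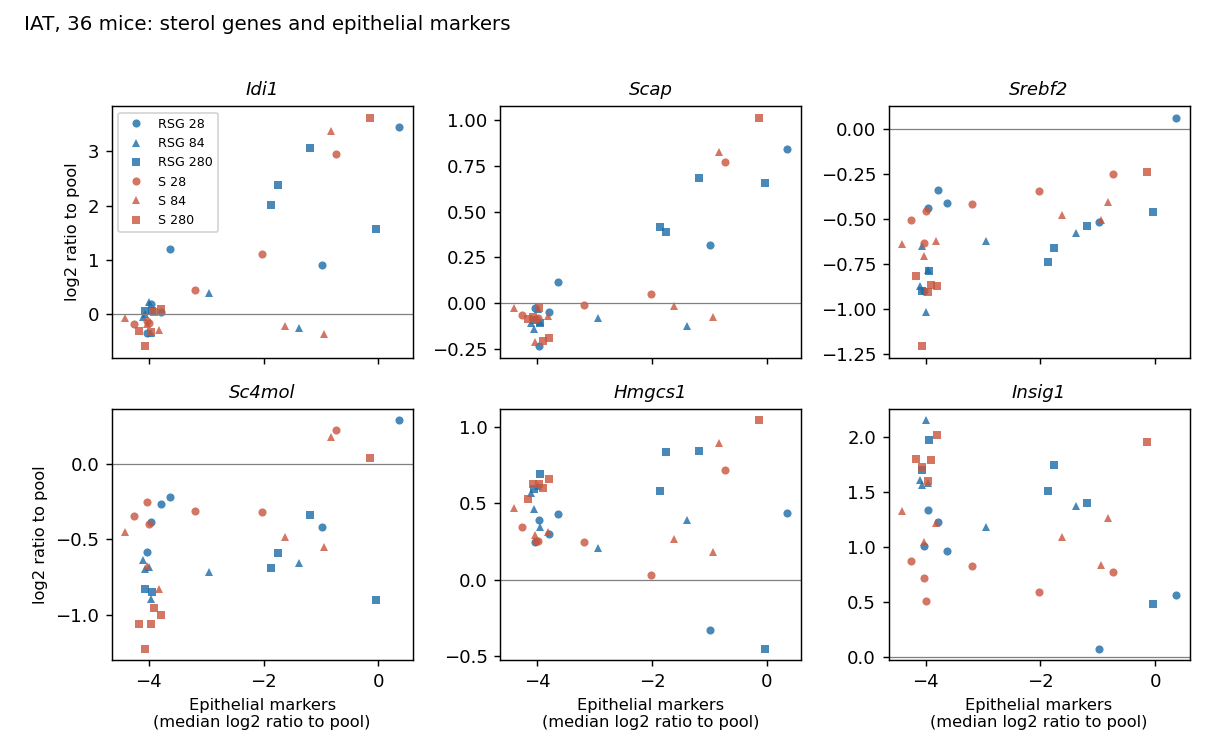
Log2 ratio over the pool in IAT of 6 members against the median log2 ratio of 11 epithelial markers, 1 point per mouse, 36 mice, coloured by compound. Idi1 and Scap were higher in the 13 mice with epithelial markers above -2.5, whereas the Hmgcs1 medians of both sets of mice were 0.43.

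The tissues were set against each other at 280 µmol/kg, in a fit on 17604 genes tested in both that used for each gene the probe brightest over both. For Lss and Abcg8 this was another probe than within a tissue. With RSG, 4 members were higher in IAT than in liver, relative to their pools, and 11 lower, against 36.3 and 24.8% of all genes. With S, 3 were higher and 20 lower, against 44.2 and 28.7%. The median of all genes in these differences was 0.08 with RSG and 0.12 with S. No scan day held both tissues, so tissue and day cannot be told apart. The study's methods describe both tissues as taken from the same mice, but the labels do not link the samples of a mouse. The fit had no term for the mouse and treated the samples as independent.

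Acat2 and Insig1 were higher in IAT with both compounds, by 1.17 and 1.05 with RSG and by 1.25 and 1.04 with S. Abcg5 differed by -2.21 and -2.52 on the log2 scale, and Sqle by -1.07 and -2.30. With S the enzymes Fdps, Idi1, Sc4mol, Cyp51 and Hmgcs1 followed, with differences of -1.52, -1.36, -1.35, -1.34 and -1.24. With RSG the same enzymes gave -0.53 for Fdps and -0.48 for Sc4mol, and no difference was called for Idi1, Cyp51 and Hmgcs1. Npc2 and Stard4, both lower in IAT with either compound, differed by -0.60 and -0.86 with RSG and -0.59 and -1.22 with S. Whether the tissue difference itself differs between the compounds was not tested.

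**Figure D5:**
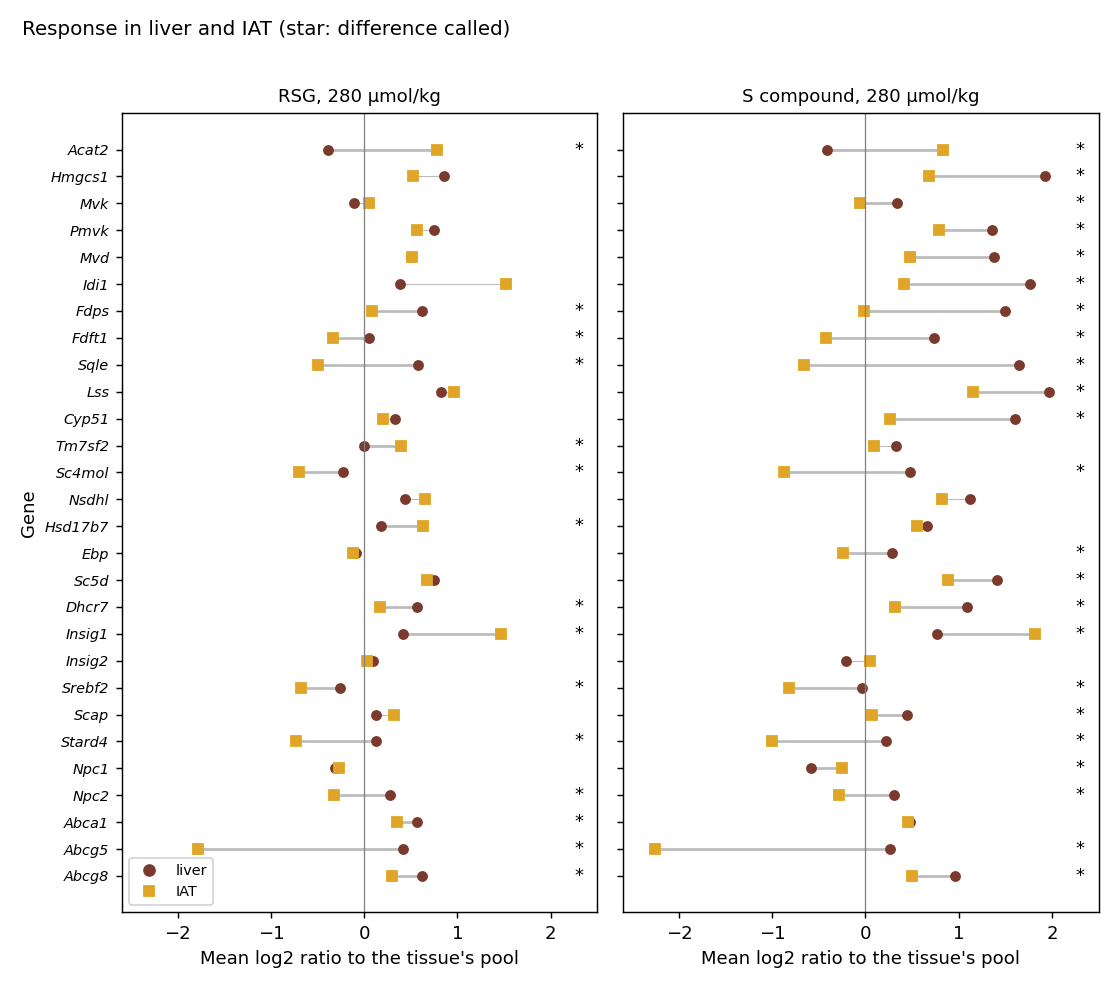
Mean log2 ratio over the pool of the same tissue at 280 µmol/kg in liver (circles) and IAT (squares) for the 28 members, RSG and S in separate panels. A star marks a called difference between the tissues. Abcg5 is the gene with the widest gap in both panels, and with S 20 members lie lower in IAT.

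The series holds 6 technical replicates each of liver at RSG 28 and S 28 µmol/kg, whose labels do not say from which mouse the RNA came. The median SD of the 28 members over them was 0.032 with RSG and 0.044 with S, against 0.256 and 0.127 between mice. The SD between mice also holds the spread between scan days, of which there were 3 for RSG 28 µmol/kg and 1 for S 28 µmol/kg. The spread between mice was the larger one for 27 and 26 of 28 members. The level of the technical replicates could differ from that of the mice. For Npc2 their means were -0.05 with RSG and -0.14 with S, against 0.15 and 0.10 over the mice. With S, Acat2 was 0.04 against -0.19 and Insig2 0.09 against 0.61, while Fdps was 0.72 against 0.73. The SD over technical replicates leaves out such shifts, and their cause was not tested. Members of the pathway also varied together within groups. Over the 153 pairs of the 18 enzymes the median correlation of deviations from the group mean was 0.72 in liver (0.005 to 0.98, 56 pairs over 0.8) and 0.63 in IAT (-0.50 to 0.95, 37 pairs over 0.8). Between the enzymes and the other 10 members it was 0.16 and 0.07, and between the enzymes and all genes near 0 (0.0023 and -0.016). In liver the value for the other 10 joins unlike members. Insig1 correlated with the enzymes at 0.49 to 0.91, Scap at 0.27 to 0.84, Srebf2 at 0.12 to 0.80 and Stard4 at 0.19 to 0.73. Npc1 gave -0.80 to -0.20, and Insig2, Npc2, Abca1, Abcg5 and Abcg8 had values on both sides of 0. These correlations run over 36 mice per tissue that share arrays of the same scan days and 1 pool.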

How the data were processed

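Total RNA of liver and IAT was hybridised on 168 arrays, 144 of them for the 72 treated mouse tissues and the rest for 12 technical replicates. The arrays were read with Agilent Feature Extraction 9.5, per the labels. The deposited array files hold a log10 ratio, red channel against green, which the authors' software had corrected for background and for dye. They also hold signal columns, which are intensity values on a linear scale as the authors' scanner software gave them, and marks for outlier spots and for spots well above background. A table deposited by the authors holds a log10 ratio for each of the 84 samples. In it 80 columns follow their own arrays (correlation 0.997 to 1.000), and 4 were left out.

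The authors' log10 ratio was turned into a log2 ratio of treated mouse over pool. Arrays of a pair correlated from -0.945 to -0.713 before 1 was turned. Control spots and outlier spots were left out, and spots of a probe and the 2 arrays of a mouse were averaged, with no further scaling. Array medians lay between -0.064 and 0.0013 in liver and between -0.054 and 0.082 in IAT. Probes entered the test where, in any group, treated or pool channel stood well above background on 50% of the arrays or more. The number of arrays and their signal limit the precision.

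Groups came from the sample labels. Group means were fitted with limma 3.58.1 (R 4.3.3) over the 36 mice of a tissue and tested against 0, between compounds at each dose and between 280 and 28 µmol/kg. IAT and liver were compared in a fit of both. All 28 members are named. Promoter windows were read from RefSeq tables of GRCm38.p6 by gene symbol, and 23 members matched. Marker genes came from fixed lists. The members and lists were chosen with earlier results of these data known. The fit was tested on simulated data. Plots were made with Python 3.11.15 and matplotlib 3.10.9. The alternatives were the study's thresholds (p under 0.001 and a fold of at least 1.3), normexp background correction with an offset of 50, the authors' own table as values, other filters, centring, the mean of all probes of a gene, blocks for scan day, slide and replicate number, and leaving out each mouse. The slide block and the fit without mice of high epithelial markers were added after the data were seen.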

Additional observations from a re-analysis of the deposited data

Results flagged for a closer look

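In 52 of 336 groups of 6 mice, a group being 1 member in 1 tissue at 1 dose of 1 compound, the highest or lowest mouse stood apart from the other 5 by more than Dixon's critical value of 0.625. Chance alone gives about 1 in 20.

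In liver, replicate 2 of RSG 280 µmol/kg stood apart for 5 members: Acat2 at -0.686, Lss at -0.0025, Npc1 at 0.895, Sc5d at -0.0392 and Abca1 at 0.315. It was the lowest of the 6 mice for 18 of 28 members and the highest for 2. In the same group replicate 1 had Stard4 at 0.704. Replicate 5 of RSG 84 µmol/kg stood low for Pmvk (-0.193), Stard4 (-1.18) and Scap (-0.275). The other liver values apart from their group were Abcg5 at RSG 28 µmol/kg (0.107) and RSG 84 µmol/kg (-0.063), Insig2 at RSG 28 µmol/kg (1.16), Npc2 at S 28 µmol/kg (-0.0425), and at S 84 µmol/kg Npc1 (-0.307), Sqle (1.31) and Stard4 (0.0736). At S 280 µmol/kg replicate 6 had Sc5d at 0.793 and Scap at 0.248.

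In IAT a few mice carried most of the values. Each mouse named by replicate in this paragraph had the highest epithelial marker median of its group. These medians were 0.36 at RSG 28, -0.04 at RSG 280, -0.74 at S 28, -0.83 at S 84 and -0.14 at S 280 µmol/kg. Whether epithelial content has a part in their values was not tested. Replicate 2 of RSG 280 µmol/kg had Hmgcs1 at -0.454, Npc1 at 0.234, Ebp at -0.27, Fdft1 at 0.269, Pmvk at -0.418, Nsdhl at -0.233 and Cyp51 at -0.467. Replicate 3 of S 280 µmol/kg had Hmgcs1 at 1.05, Sc4mol at 0.038, Abcg8 at 0.156, Idi1 at 3.63, Scap at 1.01, Mvk at 0.558 and Cyp51 at 0.633. Replicate 5 of S 28 µmol/kg had Sc4mol at 0.22, Npc1 at 0.0175, Mvd at 0.842, Sqle at -0.0113, Tm7sf2 at 0.636, Scap at 0.772 and Mvk at 0.774. Replicate 6 of S 84 µmol/kg had Sc4mol at 0.178, Idi1 at 3.38, Mvd at 1.01, Fdps at 0.503, Lss at 0.455, Scap at 0.826, Mvk at 1.03 and Cyp51 at 0.542. Replicate 5 of RSG 28 µmol/kg had Npc2 at -0.415 and Mvk at 0.854. Single values were Hmgcs1 at RSG 28 µmol/kg (-0.33), Sc4mol at RSG 84 µmol/kg (-0.893) and Npc2 at S 28 µmol/kg (-0.235).

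Over all genes tested in both tissues, 36.3% were higher and 24.8% lower in IAT than in liver with RSG, and 44.2 and 28.7% with S. Beside these shares, the response in IAT differed from that in liver, by a test of the difference, for 15 of 28 members with RSG at 280 µmol/kg. Of these, 4 were higher and 11 lower. With S the test called 23 of 28, of which 3 were higher and 20 lower. With RSG the members called in either direction were a smaller share than that of all genes. Among the called members, those called in opposite directions against the pools of the 2 tissues were Acat2 (1.17), Sqle (-1.07), Npc2 (-0.599) and Abcg5 (-2.21) with RSG, as IAT minus liver. With S they were Acat2 (1.25), Fdft1 (-1.16), Sqle (-2.3), Sc4mol (-1.35), Ebp (-0.523), Npc2 (-0.589) and Abcg5 (-2.52).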

How the results depend on the processing

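Counts are members called of 28. With scan day as a block, calls in liver against the pool were 3 at S 28 µmol/kg and 13 at S 84 µmol/kg, those for RSG minus S were 0 at 84 and 1 at 280 µmol/kg, and that for S 280 minus 28 µmol/kg was 8. In IAT they were 6 at RSG 28, 10 at S 28 and 12 at S 84 µmol/kg (13.8, 32.6 and 23.9% of all genes), and 0 for RSG 280 minus 28 µmol/kg. Intervals were wider in that fit, as groups share few days. Scan day could not be fitted for IAT S 280 µmol/kg or for IAT minus liver. With the study's thresholds the liver counts were 10, 10 and 13 for RSG and 10 and 14 for S 28 and 84 µmol/kg, 2 for RSG minus S at 28 µmol/kg and 3 for RSG 280 minus 28 µmol/kg. In IAT they were 8, 13 and 14 for RSG, 9 for S 28 µmol/kg, 0 and 6 for the dose comparisons of RSG and S, and 8 for IAT minus liver with RSG. Shares over all genes were not computed for these thresholds or for the alternatives that follow. Such counts therefore show how far the calls depend on the processing, and cannot be set against all genes.

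RSG minus S in liver at 28 µmol/kg gave 1 call with a stricter filter, 1 with the mean of all probes, and 0 to 2 with 1 mouse left out (1 and 2 without RSG replicates 4 and 6). At 84 µmol/kg it gave 4 with slide as a block and 1 to 8 with 1 mouse left out: 2, 3 and 1 without RSG replicates 1, 2 and 5, and 4, 2 and 3 without S replicates 4, 5 and 6. At 280 µmol/kg it gave 16 to 19, and IAT RSG 280 minus 28 µmol/kg gave 4 to 8 (8 without RSG 28 µmol/kg replicate 2).

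The replicate block gave 2 calls for RSG minus S in liver at 28 µmol/kg and moved 1 of 24 counts. Mice with the same number correlated from -0.27 to 0.48 in liver and -0.51 to 0.68 in IAT, and the medians were 0.094 and 0.13, against -0.029 and -0.030 for other numbers. Of 90 such pairs 44 and 47 were over 0.1, not all, so the mice were not treated as pairs. Normexp, the authors' table, no filter and centring moved 0 of 24 counts by over 1.5 times.

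A value called in the main fit, in the alternative or in both changed sign in 10 cases, given below. Sign changes of values called in neither fit were not counted among them. With scan day as a block, 24 of 28 members kept their sign in liver at RSG 84 and at S 28 µmol/kg, and 23 in IAT at S 84 µmol/kg. The mean of all IAT probes gave Insig2 0.173 and 0.234 at RSG 28 and 84 µmol/kg and 0.164 and 0.143 at S 28 and 84 µmol/kg, and Lss 0.599 at RSG and 0.731 at S 280 µmol/kg. Without the 13 mice Scap in IAT was -0.0988 at RSG and -0.115 at S 280 µmol/kg. Abcg8 in IAT at S 84 µmol/kg was -0.0028 with normexp, and Ebp in liver at RSG 84 µmol/kg was 0.0362 with scan day as a block. Beyond what probes and samples themselves set, the cause was not tested.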
